A study of Mus musculus with 6 samples.

Results

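The nuclear genes of the respiratory chain and of ATP synthase were examined in mouse MLL-AF9 leukemia cells that lacked or kept Ppara. Ppara encodes a nuclear receptor that is activated by fatty acids and switches on genes of their oxidation. MLL-AF9 is a fusion oncogene, delivered here to donor cells by a retrovirus (MSCV-MLL-AF9-IRES-GFP) from which green fluorescent protein (GFP) is made as well. The genes were taken by symbol: all rows of the array paired with exactly 1 symbol that starts with Ndufa, Ndufb, Ndufc, Ndufs or Ndufv, that is one of Sdha to Sdhd, or that starts with Uqcr, Cox4i, Cox5 to Cox8, or Atp5, leaving out the Ndufaf assembly factors. This gave 88 of the 30142 genes tested: 38 of complex I, 4 of complex II, 9 of complex III, 18 of complex IV and 19 of complex V.

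The 6 samples were total RNA of GFP-positive cells sorted from bone marrow mononuclear cells of secondary recipients, 3 of Ppara-/- MLL-AF9 leukemia and 3 of Ppara+/+ MLL-AF9 leukemia. Both groups carried the same retroviral oncogene and reporter and had passed through a transplanted host. The Ppara-/- and Ppara+/+ mice had been purchased and backcrossed, and the labels name neither the ages of the mice nor how many primary leukemias or recipients stood behind the 3 samples of a genotype. The p-values therefore measure the spread between these 6 samples, which may be technical in part. In sorted bulk cells, fewer cells of a type and less RNA per cell cannot be told apart.

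The respiratory chain sits in the inner mitochondrial membrane and passes electrons from NADH and succinate to oxygen. Complexes I, III and IV pump protons as they do so, and complex V, the ATP synthase, makes ATP as the protons flow back. A few of the hydrophobic subunits are made from mitochondrial DNA, and the others are nuclear genes whose proteins are imported. Acute myeloid leukemia cells are known for a marked reliance on this pathway, and fatty acid oxidation, which PPARA controls, supplies it with NADH and reduced flavins.

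Of the 88 genes, 79 encode subunits. The other 9 share the names without being established subunits: Ndufb4b, Ndufb4c and Ndufa11b are copies of subunit genes, Ndufa4l2 is a paralogue of Ndufa4, Cox7a2l encodes an assembly factor of respiratory supercomplexes, and Atp5l2, Atp5l-ps1, Atp5c1-ps and Uqcrh-ps1 are pseudogenes. Signals of such copies may include RNA of the gene they resemble. The 13 subunits made from mitochondrial DNA were not analysed here.

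Values are log2 signals, so a difference of 1 is a doubling, and every difference is Ppara-/- minus Ppara+/+. Ppara itself was close to the negative-control probes, at 5.29, 5.05 and 5.23 in the Ppara-/- samples, against 4.87, 5.19 and 5.18 in the Ppara+/+ samples (difference 0.11, limma adjusted p = 0.997), so the array did not check the genotype. The position of its probes relative to the deleted part of the gene is not given in the sources used here. Negative-control probes had medians of 4.63 to 4.81 on 4 arrays, and higher ones on Ppara-/- replicate 2 (4.99) and Ppara+/+ replicate 1 (5.16). The 95th percentile of those probes, used here as the mark of a signal clear of background, lay between 7.91 and 8.23 on the 6 arrays. Of the 88 genes, 30 were above it on all 6 arrays, 8 on some and 50 on none. Where groups of genes are compared below, a looser rule applies: a mean over the 6 arrays above 7.91, the lowest of these percentiles. By that rule 39 of the 88 genes and 4379 of all genes are clear of the negative controls. Of the 39, 1 was above the mark on no single array.

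No gene of the respiratory chain or of ATP synthase passed the test between the genotypes. Over all 30142 genes, limma called 38 at an adjusted p under 0.05 (0.126%), and 0 of the 88 were among them. At an unadjusted p under 0.05, 4 of the 88 were lower in Ppara-/- cells, namely Sdha, Atp5g2, Atp5h and Ndufa10, against 2.61% of all genes, and 0 were higher, against 3.17% of all genes. The smallest adjusted p was 0.849, for Sdha. The count of 4 became 0 when Ppara-/- replicate 3 was left out, 7 when Ppara-/- replicate 2 was and 1 when Ppara+/+ replicate 1 was.

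The differences were small, and more of them were negative than positive. Of the 88 genes, 61 (69.3%) had a lower mean in Ppara-/- cells, against 42.7% of all genes tested. The median difference was -0.06, and it was 0.02 over all genes. Single genes ran from -0.42 for Sdha to 0.22 for Cox7a1. Among genes whose mean was clear of the negative controls, 29 of 39 respiratory genes were negative with a median of -0.12, beside 55.4% of all 4379 such genes with a median of -0.02. Of those 39, 2 were lower at an unadjusted p under 0.05, where 5.18% of the 4379 were.

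The intervals bound how large a difference these arrays leave room for. The 95% interval of the difference lay within 1.5-fold in either direction for 81 of the 88 genes and within 2-fold for all 88. Of the 39 genes with a mean clear of the negative controls, 35 had intervals within 1.5-fold. The median standard error was 0.12. A missed threshold does not show equal levels, and the widest reach of any interval was -0.82, for Sdha.

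**Figure D1:**
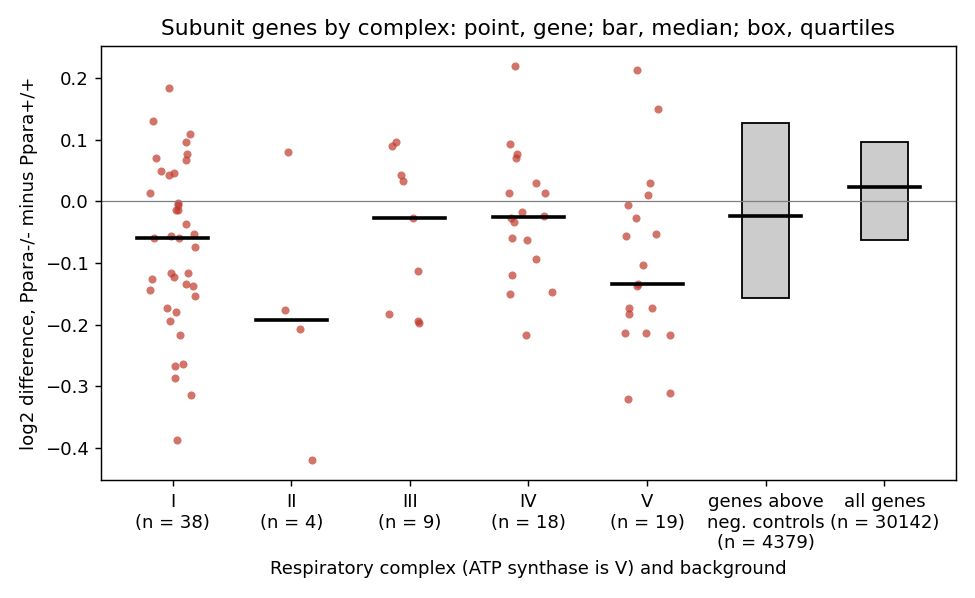
The log2 difference (Ppara-/- minus Ppara+/+) of each of the 88 genes, by complex I to V, is drawn beside boxes of all 30142 genes and of the 4379 genes clear of the negative controls. Points are genes, bars are medians and boxes are quartiles. All 88 points lie between -0.42 and 0.22, and the medians of complexes II (-0.19) and V (-0.13) are lower than those of complexes I (-0.06), III (-0.03) and IV (-0.02).

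The genotypes were seldom separated. In 8 of the 88 genes all 3 Ppara-/- values lay below all 3 Ppara+/+ values, against 3.63% of all genes, and in 2 genes they lay above, against 5.15% of all genes. The 8 were Ndufa10, Ndufb5 and Ndufa12 of complex I, Uqcrfs1 of complex III, Cox7c of complex IV, and Atp5g1, Atp5g2 and Atp5md of complex V. The 2 were Ndufb3 and Atp5j. Of the 39 genes clear of the negative controls, 5 were separated downward and 0 upward. Of the 4379 such genes, 253 (5.78%) were separated downward and 259 upward.

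Ndufa10, Atp5h, Sdha and Atp5g2 had unadjusted p-values under 0.05, so the sequence before each gene is shown, with the letters of transcription factor motifs known from mitochondrial promoters in capitals. The windows reach from 250 bases before to 50 bases after the gene's start, on mouse assembly GRCm38.p6, and come from RefSeq. All 4 genes lie on the minus strand, and the sequences are written 5′ to 3′ along the gene. Capitals in Ndufa10 (chr1:92473709-92474008) mark the cyclic AMP response element TGACGTCA, which begins at position -67 relative to the start. In Atp5h (chr11:115419870-115420169) they mark an NRF1 motif at -141 and an ETS motif on the opposite strand at -38. In Sdha (chr13:74350191-74350490) they mark 3 NRF1 motifs at -98, -55 and -10. In Atp5g2 (chr15:102670998-102671297) they mark 2 NRF1 matches that overlap on opposite strands, at -42 and -41.
Ndufa10: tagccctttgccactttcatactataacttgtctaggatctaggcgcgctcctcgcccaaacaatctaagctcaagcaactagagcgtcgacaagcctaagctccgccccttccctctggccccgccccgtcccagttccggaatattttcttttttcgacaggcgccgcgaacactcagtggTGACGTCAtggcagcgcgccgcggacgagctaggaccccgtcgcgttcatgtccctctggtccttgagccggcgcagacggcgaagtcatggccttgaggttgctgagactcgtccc
Atp5h: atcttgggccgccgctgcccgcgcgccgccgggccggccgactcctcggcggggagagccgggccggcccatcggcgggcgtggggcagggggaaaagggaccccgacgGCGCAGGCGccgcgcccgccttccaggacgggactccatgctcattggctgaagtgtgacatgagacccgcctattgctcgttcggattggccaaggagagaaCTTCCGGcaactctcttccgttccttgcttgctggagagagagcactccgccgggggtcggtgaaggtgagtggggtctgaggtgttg
Sdha: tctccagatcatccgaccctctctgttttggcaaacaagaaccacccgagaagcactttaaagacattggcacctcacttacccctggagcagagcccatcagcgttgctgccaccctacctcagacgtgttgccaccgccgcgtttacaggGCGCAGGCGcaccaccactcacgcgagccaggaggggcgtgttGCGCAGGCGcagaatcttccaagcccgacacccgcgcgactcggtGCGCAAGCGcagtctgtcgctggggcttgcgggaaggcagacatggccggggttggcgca
Atp5g2: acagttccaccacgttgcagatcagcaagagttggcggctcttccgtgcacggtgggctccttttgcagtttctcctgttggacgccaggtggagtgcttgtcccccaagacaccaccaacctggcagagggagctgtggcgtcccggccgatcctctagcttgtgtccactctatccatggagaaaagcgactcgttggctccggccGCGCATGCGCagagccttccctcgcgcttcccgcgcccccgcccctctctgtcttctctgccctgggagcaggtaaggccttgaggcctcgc

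Promoter windows were at hand for 67 of the 88 genes, in 71 windows, and the motifs were counted on both strands. GCGCANGCG, the core of the site of NRF1 (nuclear respiratory factor 1, an activator of nuclear mitochondrial genes), was in 25.4% of the 71 windows, against 6.25% of all 32851 windows and 8.58% of the 21263 windows of protein-coding genes. CCGGAAG, read by ETS factors such as the GABP complex, was in 23.9%, against 8.86% of all windows. AAGATGGCG, the site of YY1, was in 9.86%, against 1.40% of all windows. TCAAGGTCA, read by the estrogen-related receptors, was in 2 windows, those of Sdhd and Atp5g3. The direct repeat read by PPAR and RXR pairs was in 0 of the 71 windows and in 0.381% of all windows. TATAAA was in 12.7%, near the 13.6% of all windows.

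Genes with and without the NRF1 motif both had small differences. The median was -0.11 over the 17 genes with it and -0.03 over the 50 without it, and Sdha, Atp5g2 and Atp5h were among the 17. For the ETS motif the medians were -0.03 over 17 genes with it and -0.07 over 50 without it. For the YY1 motif they were -0.01 over 7 and -0.06 over 60, and for TATAAA -0.03 over 8 and -0.06 over 59. The 3 genes with the cyclic AMP response element had -0.20, against -0.06 without it. The 2 with the motif of estrogen-related receptors had -0.14, against -0.06 without it. A match is a run of letters and not a measured binding site.

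Complex I, the NADH dehydrogenase, had 1 gene at an unadjusted p under 0.05 among 38. Its median difference was -0.06, and 27 of the 38 were negative. The median was -0.10 without Ppara-/- replicate 1 and -0.04 without Ppara-/- replicate 3. Ndufa10 was the gene with the unadjusted p under 0.05, an accessory subunit of the membrane arm, at 8.39, 8.27 and 8.09 in Ppara-/- cells, against 8.71, 8.44 and 8.46 in Ppara+/+ cells. The genotypes did not overlap, with 8.39 as the highest Ppara-/- value and 8.44 as the lowest Ppara+/+ value. The difference was -0.29 (SE 0.12, 95% interval -0.57 to -0.01, limma adjusted p = 0.860).

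Ndufb9, an accessory subunit at the tip of the membrane arm, had the most negative difference of complex I. Its signal was 9.92, 9.87 and 9.34 in Ppara-/- cells, against 10.22, 10.21 and 9.86 in Ppara+/+ cells. Ppara-/- replicate 3 was lowest, and the lowest Ppara+/+ value lay below 2 of the 3 Ppara-/- values, so the groups overlapped. The difference of -0.39 (SE 0.18, adjusted p = 0.895) became -0.20 without Ppara-/- replicate 3. Ndufc2, another membrane arm subunit, had 6.91 ± 0.12 in Ppara-/- cells and 7.17 ± 0.15 in Ppara+/+ cells (SD, n = 3 each), a difference of -0.26. Its groups overlapped, and it was not clear of the negative controls on any array.

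Ndufb3, a small membrane arm subunit, had the most positive difference of complex I, 0.18 (SE 0.11). It had 7.81, 7.81 and 7.71 in Ppara-/- cells, against 7.65, 7.44 and 7.69 in Ppara+/+ cells. The groups were separated by 0.02, between Ppara-/- replicate 3 and Ppara+/+ replicate 3.

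The catalytic core of complex I, which carries the flavin and the iron-sulfur clusters, had small differences, as the accessory subunits did, and the 2 groups were not tested against each other. Ndufv1, Ndufv2, Ndufs1, Ndufs3, Ndufs7 and Ndufs8, the 6 core genes described here, had negative differences, with a median of -0.10, and 17 of 28 accessory subunits did, with a median of -0.05. None of the 6 had an unadjusted p under 0.05. Ndufs8, a carrier of iron-sulfur clusters near the quinone site, was the lowest of them at -0.27 (9.03 ± 0.16 in Ppara-/- cells and 9.30 ± 0.15 in Ppara+/+ cells, SD, n = 3 each). Ndufv1, which holds the flavin, was at -0.01.

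Ndufa4 and Ndufa4l2 had no unadjusted p under 0.05. Ndufa4 was named as a complex I subunit and has since been assigned to cytochrome c oxidase, and Ndufa4l2 is its hypoxia-inducible paralogue. Ndufa4 had 8.99, 9.08 and 8.60 in Ppara-/- cells, against 9.08, 9.06 and 9.05 in Ppara+/+ cells, a difference of -0.17. Ppara-/- replicate 3 was the lowest array, and without it the difference was -0.03. Ndufa4l2 was within the negative-control range on all 6 arrays, at 4.72 ± 0.19 in Ppara-/- cells and 4.84 ± 0.29 in Ppara+/+ cells (SD, n = 3 each).

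Complex II, succinate dehydrogenase, joins the chain to the tricarboxylic acid cycle and is encoded by nuclear genes alone. Its 4 genes had a median difference of -0.19, the lowest of the complexes, and 3 of the 4 were negative. When 1 array was left out the median was between -0.29, without Ppara+/+ replicate 2, and -0.11, without Ppara+/+ replicate 1, and it was -0.12 without Ppara-/- replicate 3. Sdha, the flavoprotein that oxidises succinate, had 7.38, 7.60 and 7.08 in Ppara-/- cells, against 8.10, 7.65 and 7.57 in Ppara+/+ cells. The groups met at Ppara-/- replicate 2, which lay above Ppara+/+ replicate 3. The difference was -0.42 (SE 0.18, 95% interval -0.82 to -0.02, adjusted p = 0.849), a 1.34-fold lower mean, and it became -0.26 without Ppara+/+ replicate 1.

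The other 3 subunits of complex II did not move with Sdha in one direction. Sdhb, the iron-sulfur subunit, had 7.69, 7.41 and 7.57 in Ppara-/- cells, against 7.47, 7.49 and 7.47 in Ppara+/+ cells, a difference of 0.08. Sdhc, one of the 2 membrane anchors, had 7.69, 7.77 and 7.31 in Ppara-/- cells, against 7.97, 7.65 and 7.77 in Ppara+/+ cells, a difference of -0.21. Sdhd, the other anchor, had 8.24, 8.43 and 8.30 in Ppara-/- cells, against 8.64, 8.24 and 8.62 in Ppara+/+ cells, a difference of -0.18. The groups overlapped in each of the 3. Sdhd was the only subunit of complex II clear of the negative controls on all 6 arrays.

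**Figure D2:**
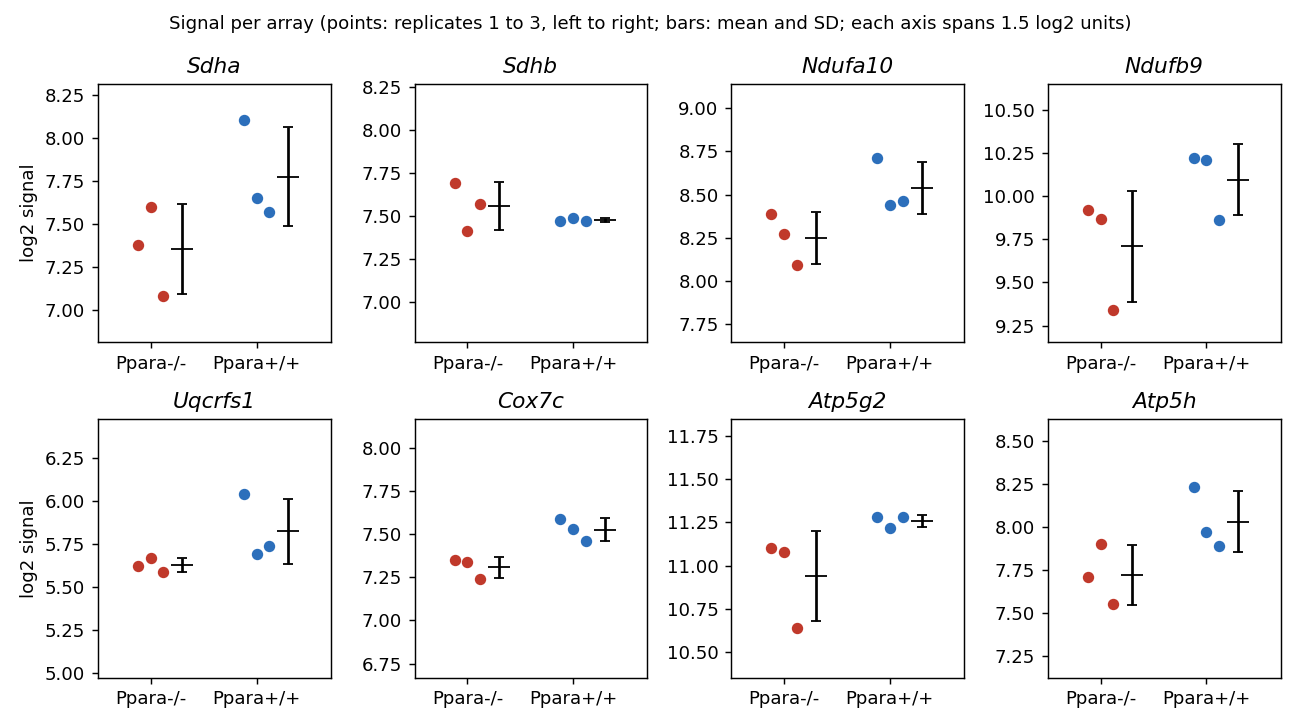
The log2 signal of selected genes is plotted for each sample, with Ppara-/- to the left and Ppara+/+ to the right. Points are samples and bars are the mean and SD of 3, and every panel spans 1.5 log2 units around the gene's own mean. Ndufa10, Atp5g2 and Cox7c show no overlap between the genotypes, whereas Sdha and Ndufb9 do.

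Complex III, the cytochrome bc1 complex, had no gene at an unadjusted p under 0.05 among 9. Its median difference was -0.03, and 5 of the 9 were negative. Without Ppara+/+ replicate 3 the median was -0.13. The 2 core proteins Uqcrc1 and Uqcrc2 and the Rieske iron-sulfur protein Uqcrfs1 were all negative, with a median of -0.18. Uqcrfs1, which hands electrons on to cytochrome c1, had 5.62, 5.67 and 5.59 in Ppara-/- cells, against 6.04, 5.69 and 5.74 in Ppara+/+ cells. The groups were separated by 0.02, at signals below the background mark on all 6 arrays.

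Uqcrc2, Uqcrb and Uqcrq varied more between replicates than between genotypes. Uqcrc2 had 8.23, 8.52 and 8.09 in Ppara-/- cells, against 8.79, 8.30 and 8.30 in Ppara+/+ cells (difference -0.18). Uqcrb, a small subunit at the quinone pocket, had 9.42, 9.51 and 9.12 in Ppara-/- cells, against 9.90, 9.56 and 9.17 in Ppara+/+ cells (difference -0.19). Ppara+/+ replicate 1 was the highest array in both. Uqcrq, another small subunit, had the most positive difference, 0.10, at 8.60, 8.29 and 8.53 in Ppara-/- cells, against 8.26, 8.52 and 8.35 in Ppara+/+ cells, and its groups overlapped.

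Complex IV, cytochrome c oxidase, had a median difference of -0.02 over 18 genes, 11 of them negative, and none at an unadjusted p under 0.05. The median ranged from -0.08 without Ppara+/+ replicate 1 to 0.01 without Ppara-/- replicate 2. Cox7c, a small subunit of the membrane part, came nearest, at 7.35, 7.34 and 7.24 in Ppara-/- cells, against 7.59, 7.53 and 7.46 in Ppara+/+ cells. The genotypes did not overlap. The difference was -0.22 (SE 0.10, unadjusted p = 0.0538 and adjusted p = 0.888, limma). Its signal was below the 95th percentile of the negative controls on all 6 arrays.

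Several nuclear subunits of complex IV have a widely expressed form and a form restricted to muscle, heart, lung or testis. For subunits 6a and 8 the division appeared in which forms were clear of background, and 0 of these genes had an unadjusted p under 0.05. Over the 7 restricted forms the median difference was -0.02, as over complex IV. The widely expressed Cox6a1 had 11.36, 11.33 and 11.09 in Ppara-/- cells, against 11.30, 11.50 and 11.42 in Ppara+/+ cells, and the muscle form Cox6a2 had 6.07, 5.66 and 5.86 in Ppara-/- cells, against 5.56, 6.15 and 5.98 in Ppara+/+ cells. Cox6a1 was clear of the negative controls on all 6 arrays and Cox6a2 on none.

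The same division held for the pair of subunit 8. Cox8a had 10.51, 10.40 and 10.22 in Ppara-/- cells, against 10.29, 10.48 and 10.72 in Ppara+/+ cells, clear of background on all arrays. Cox8b, the heart and muscle form, was clear of it on none, at 4.46, 4.12 and 4.28 in Ppara-/- cells, against 3.98, 4.55 and 4.40 in Ppara+/+ cells. Cox8c, a testis form, was also clear of it on none, at 4.96, 4.87 and 5.16 in Ppara-/- cells, against 4.45, 5.07 and 5.19 in Ppara+/+ cells. Their differences were -0.02 and 0.09, and in both the lowest value was that of Ppara+/+ replicate 1, an array of high negative-control signal.

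Subunits 4, 6b and 7a did not divide as plainly. Cox4i1, the general form of subunit 4, had a signal of 7.81, 7.67 and 7.69 in Ppara-/- cells, against 7.59, 7.77 and 7.86 in Ppara+/+ cells. Cox4i2, the lung form, had 6.30 ± 0.16 in Ppara-/- cells and 6.45 ± 0.19 in Ppara+/+ cells (SD, n = 3 each). Both stayed below the background mark, with differences of -0.02 and -0.15.

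Cox6b1 had 9.50, 9.44 and 9.56 in Ppara-/- cells, against 9.48, 9.73 and 9.25 in Ppara+/+ cells. Its testis form Cox6b2 had 8.29, 8.18 and 8.16 in Ppara-/- cells, against 8.22, 8.15 and 8.17 in Ppara+/+ cells, which was clear of background on 3 of 6 arrays. Their differences were 0.01 and 0.03. Cox7a2, the general form of subunit 7a, had 7.99, 8.08 and 7.81 in Ppara-/- cells, against 7.78, 8.01 and 7.88 in Ppara+/+ cells (difference 0.07).

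Cox7a1, the heart and muscle form of subunit 7a, had the most positive difference of all 88 genes, 0.22 (SE 0.20). It had 5.99, 5.43 and 6.02 in Ppara-/- cells, against 5.35, 5.92 and 5.51 in Ppara+/+ cells. The groups overlapped, and Ppara-/- replicate 2 and Ppara+/+ replicate 1, the arrays of high negative-control signal, were the lowest of their genotypes.

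Complex V, the ATP synthase, had 2 of 19 genes at an unadjusted p under 0.05, a median difference of -0.13 and 15 negative differences. Atp5g2, one of 3 genes for the c subunit that forms the rotating ring, had 11.10, 11.08 and 10.64 in Ppara-/- cells, against 11.28, 11.22 and 11.28 in Ppara+/+ cells. The genotypes did not overlap, and Ppara-/- replicate 3 was the lowest array. The difference was -0.32 (SE 0.14, 95% interval -0.63 to -0.01, adjusted p = 0.859), and it became -0.17 without that array.

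The other 2 genes of the c ring were also lower in mean. Atp5g1 had 8.92, 8.86 and 8.59 in Ppara-/- cells, against 8.95, 9.09 and 8.98 in Ppara+/+ cells, without overlap (difference -0.22). Atp5g3 had 7.90, 7.99 and 7.87 in Ppara-/- cells, against 7.96, 7.97 and 8.14 in Ppara+/+ cells, with overlap (difference -0.10). The 3 genes encode the same mature protein, and the median over them was -0.22.

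Atp5h, subunit d of the peripheral stalk that holds the catalytic head still, had 7.71, 7.90 and 7.55 in Ppara-/- cells, against 8.23, 7.97 and 7.89 in Ppara+/+ cells. Ppara-/- replicate 2 lay above Ppara+/+ replicate 3, so the groups overlapped. The difference was -0.31 (SE 0.13, adjusted p = 0.861). Atp5j, coupling factor 6 of the same stalk, was separated in the opposite direction, at 6.75, 6.81 and 6.75 in Ppara-/- cells, against 6.71, 6.51 and 6.64 in Ppara+/+ cells (difference 0.15). The 4 stalk genes had a median of -0.12, and 3 were negative.

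The catalytic head and the central stalk were represented by 4 genes, of which 3 were negative, with a median of -0.16. Atp5d, among the 3, was at -0.14. Atp5b, the catalytic beta subunit, had 9.18, 9.29 and 8.79 in Ppara-/- cells, against 9.49, 9.22 and 9.19 in Ppara+/+ cells (difference -0.21), and Atp5a1, the alpha subunit, had a difference of -0.18. Atp5e, the epsilon subunit of the central stalk, had the most positive difference of complex V, 0.21, at 7.59, 7.39 and 7.55 in Ppara-/- cells, against 6.95, 7.49 and 7.45 in Ppara+/+ cells. Ppara+/+ replicate 1 was the low value there. The gamma subunit gene Atp5c1 was not analysed here.

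Atp5md, a small membrane subunit at the dimer interface, had 8.48, 8.61 and 8.38 in Ppara-/- cells, against 8.71, 8.72 and 8.68 in Ppara+/+ cells. The genotypes did not overlap, and all 6 values were clear of background. The difference was -0.21 (SE 0.10, unadjusted p = 0.0666 and adjusted p = 0.922, limma). Over the 5 membrane subunits outside the c ring the median was -0.03.

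**Figure D3:**
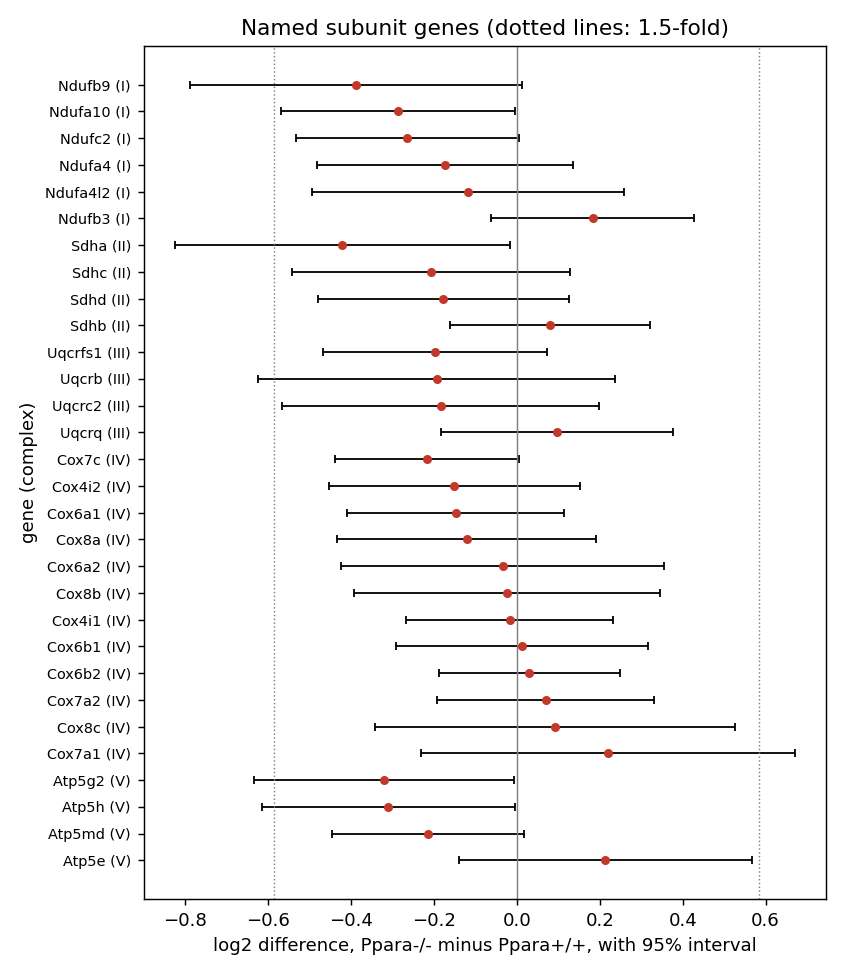
The log2 difference (Ppara-/- minus Ppara+/+) of the 30 named genes is drawn with its 95% interval from limma, with dotted lines at 1.5-fold in either direction. The intervals of Sdha, Atp5g2, Atp5h and Ndufa10 stop just short of 0 on the negative side, and the other intervals include 0.

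Complexes II and V had the lowest medians, -0.19 and -0.13, and complexes I, III and IV had -0.06, -0.03 and -0.02, while single genes of complex V alone ran from -0.32 to 0.21. No test between complexes was made, since the genes of one complex are not replicates.

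The negative lean was uneven across the arrays. Ppara-/- replicate 3 was the lowest of the 6 arrays in 40 of the 88 genes (45.5%), against 14.5% of all genes, and in 25 of the 39 genes clear of the negative controls (64.1%), against 32.2% of all such genes. In complex V it was lowest in 15 of 19 genes. The mean over the 88 genes was 7.67, 7.61 and 7.51 on the Ppara-/- arrays, against 7.66, 7.70 and 7.64 on the Ppara+/+ arrays. Ppara-/- replicate 1 thus lay within the range of the Ppara+/+ arrays, and the other 2 Ppara-/- arrays lay below it.

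Without Ppara-/- replicate 3, 54 of the 88 genes were negative, with a median of -0.03, and the median was -0.06 over the 39 genes clear of the negative controls and -0.06 in complex V. Without Ppara+/+ replicate 1, 65 were negative, with a median of -0.07, and without Ppara-/- replicate 2 and Ppara+/+ replicate 1, whose negative controls were brightest, 62 were negative, with a median of -0.08. In the same 3 settings 44.3%, 53.0% and 46.7% of all genes were negative. Of the 39 genes clear of the negative controls, 69.2%, 82.1% and 79.5% were negative in these settings. Of all 4379 such genes, 47.7%, 41.7% and 51.4% were. Without Ppara-/- replicate 1 the median of the 88 genes was -0.11.

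**Figure D4:**
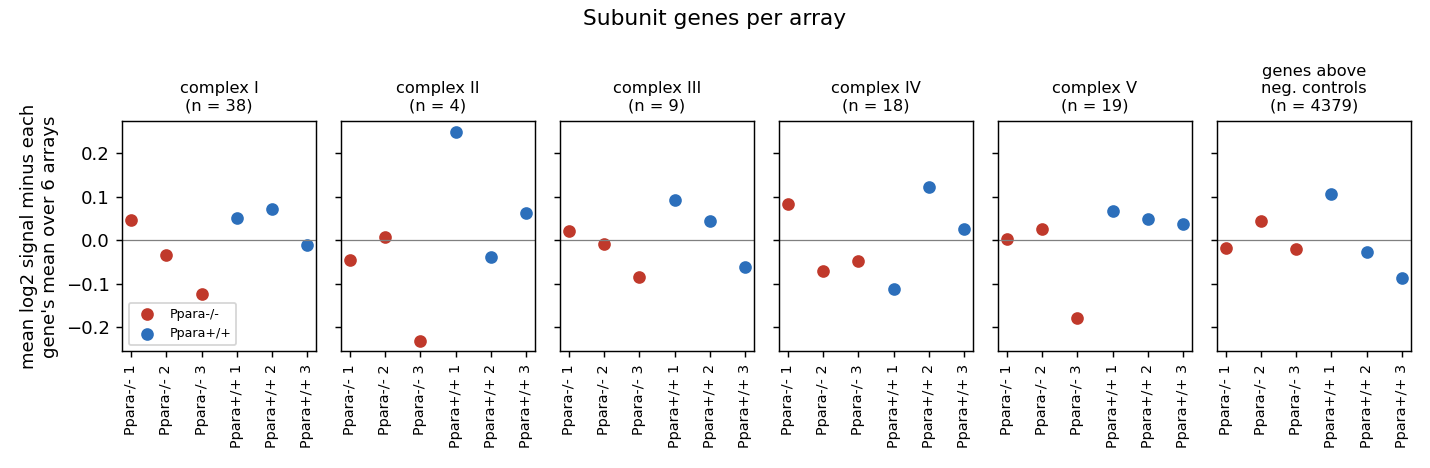
Each panel gives the mean deviation, in log2 units, of a group of genes from its own 6-array mean on each array, Ppara-/- arrays on the left and Ppara+/+ arrays on the right. The panels are complexes I to V and, at the right, the 4379 genes clear of the negative controls. Ppara-/- replicate 3 is the low point in complexes I (-0.12), II (-0.23), III (-0.09) and V (-0.18), and Ppara+/+ replicate 1 is the low point in complex IV (-0.11) and the high point in complex II (0.25).

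**Figure D5:**
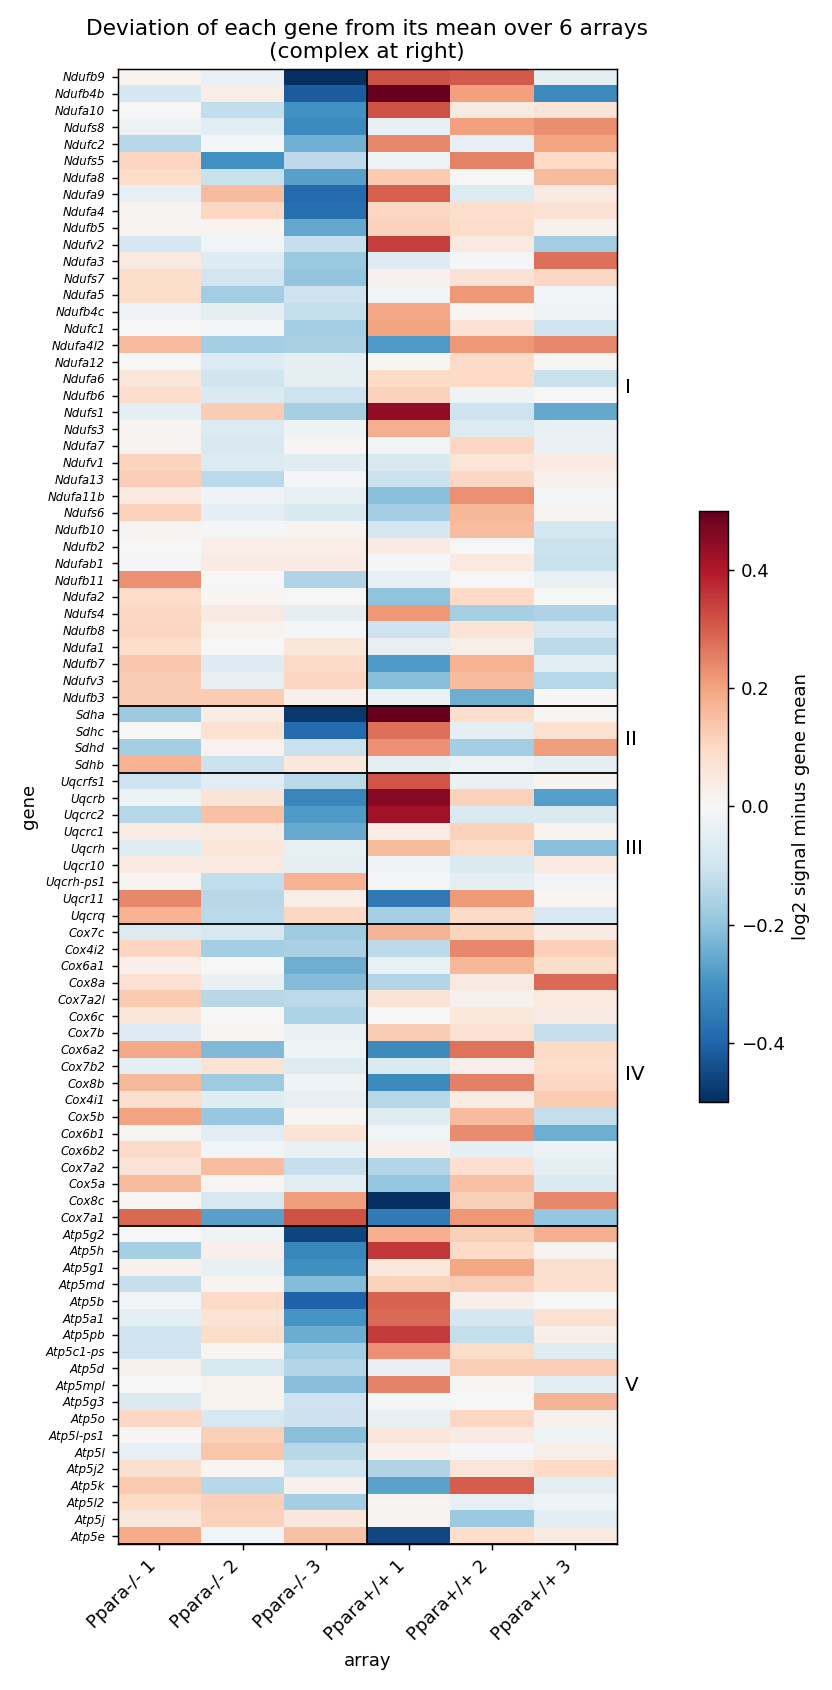
The deviation of each of the 88 genes from its own mean over 6 arrays is shown in colour (log2 units, colours saturate at the ends of the scale), with genes in rows grouped by complex, Ppara-/- arrays on the left and Ppara+/+ arrays on the right. The column of Ppara-/- replicate 3 holds the lowest value in 40 of the 88 rows.

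Proliferation genes had their lowest signal on the same array. The mean over 22 proliferation genes, 19 of which were negative (median -0.16), was 8.54, 8.88 and 8.32 on the Ppara-/- arrays, against 8.88, 8.65 and 8.63 on the Ppara+/+ arrays. Without that array 13 of the 22 were negative, with a median of -0.02. Without Ppara+/+ replicate 1, 18 were negative, with a median of -0.06. Without the 2 arrays of highest negative-control signal 21 were negative, with a median of -0.24. The part of proliferation in the respiratory differences was not tested.

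The genes that serve the chain were checked as well, 107 of them in 11 lists: assembly factors of complexes I to V, cytochrome c and ubiquinone synthesis, other routes of electron entry, the tricarboxylic acid cycle with pyruvate dehydrogenase, regulators of mitochondrial genes, ATP export and uncoupling, and defence against oxidants. Of the 107, 0 were called, 6 were lower and 2 higher at an unadjusted p under 0.05, and 72 were negative, with a median of -0.07. Over all genes 2.61% were lower and 3.17% higher at that p, and 42.7% were negative. The 75 mitochondrial ribosomal protein genes had a median of -0.01, and 42 were negative.

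The tricarboxylic acid cycle makes the NADH and succinate that complexes I and II use. Its list of 18 genes also held Pdha1, Pdhb, Dlat and Pdhx, which belong to the pyruvate dehydrogenase complex and not to the cycle itself. Of the 18, 17 were measured, and all 17 had a negative difference, with a median of -0.23. Suclg1, a succinyl-CoA ligase subunit, had 6.96, 6.90 and 6.69 in Ppara-/- cells, against 7.24, 7.12 and 7.13 in Ppara+/+ cells, without overlap (difference -0.31, adjusted p = 0.680). Fh1, fumarate hydratase, had 7.22, 7.38 and 7.09 in Ppara-/- cells, against 7.84, 7.45 and 7.39 in Ppara+/+ cells, also without overlap (difference -0.33, adjusted p = 0.861). Both genes were below the background mark on all 6 arrays. Of the 17 genes, 7 were above it on all 6 arrays and 8 on none. Ppara+/+ replicate 1 was the highest array in 15 of the 17 genes. It was highest in 19.3% of all genes, and in 42.6% of the 4379 genes clear of the negative controls. Without that array 13 of the 17 were negative and the median was -0.05, and without Ppara-/- replicate 3, 15 were negative and the median was -0.13.

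ATP export and oxidant defence held the largest single differences of these lists. Slc25a4, which exchanges ADP and ATP across the inner membrane, had 6.49, 6.23 and 6.53 in Ppara-/- cells, against 7.44, 6.83 and 6.86 in Ppara+/+ cells (difference -0.63, adjusted p = 0.440). Sod1, a superoxide dismutase of the cytosol and intermembrane space, had 8.59, 8.47 and 8.69 in Ppara-/- cells, against 9.43, 9.03 and 9.18 in Ppara+/+ cells (difference -0.63, adjusted p = 0.196). Neither gene overlapped between the genotypes, and neither passed the test. Sod1 was above the background mark on all 6 arrays, and Slc25a4 was below it on all 6. Txn2, the mitochondrial thioredoxin, had a difference of -0.33 and was also below the mark on all 6 arrays. The 9 genes of ATP export and uncoupling had a median of -0.18 and the 8 of oxidant defence of -0.20. Without Ppara+/+ replicate 1 these medians were -0.09 and -0.07, and without Ppara-/- replicate 3 they were -0.07 and -0.17. Without the 2 arrays of highest negative-control signal they were -0.205 and -0.1525.

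Assembly factors and regulators had medians on both sides of 0. These were -0.07 for 14 factors of complex I, -0.04 for 4 of complex II, 0.03 for 4 of complex III, -0.02 for 15 of complex IV, -0.14 for 3 of complex V and 0.01 for 16 regulators. All of these assembly factors were below the background mark on all 6 arrays, and so were 14 of the 16 regulators. Ndufaf7, a methyltransferase that acts on complex I, had 6.38 ± 0.03 in Ppara-/- cells and 6.63 ± 0.08 in Ppara+/+ cells (SD, n = 3 each; difference -0.26, adjusted p = 0.762). Coa3, a complex IV assembly factor, had 7.80, 7.84 and 7.58 in Ppara-/- cells, against 7.59, 7.44 and 7.42 in Ppara+/+ cells (difference 0.26, adjusted p = 0.861). The 10 genes of cytochrome c and ubiquinone synthesis had a median of 0.03 and the 7 of other electron entry of -0.08. Prodh, which passes electrons from proline to ubiquinone, had a difference of 0.31 (adjusted p = 0.634).

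The sorted cells carried the markers of a myeloid leukemia. Of 12 measured progenitor genes, 11 had a mean clear of the negative controls, with Mpo at 11.6 and Elane at 12.5. So did 8 of 10 mature neutrophil genes, with S100a8 at 12.5 and S100a9 at 12.8. All measured markers of erythroid cells (8), T cells (7), B cells (7), NK cells (7) and megakaryocytes (4) were below the background mark on all 6 arrays, and so were 7 of 8 markers of stroma and endothelium, with Pecam1, which myeloid cells express too, as the exception. Kit, the stem cell factor receptor, had a difference of 0.54 and Cd34, a progenitor antigen, one of -0.87, and neither passed the test (adjusted p = 0.546 and 0.797). Of 9 markers of monocytes and macrophages, 0 passed the test and 5 were lower in Ppara-/- cells at an unadjusted p under 0.05, against 2.61% of all genes, with a median of -0.36. The other 4 included Ccr2 at 0.37, Cd14 at 0.23 and Mrc1 at 0.07. The mean over all 9 markers was 8.00, 7.84 and 8.13 on the Ppara-/- arrays, against 8.44, 8.22 and 8.51 on the Ppara+/+ arrays, with no overlap. Mature neutrophil markers went both ways, with a median of 0.03 over 10 genes, which was -0.13 without Ppara+/+ replicate 1. Among them Retnlg had a difference of 1.28, Mmp8 of -0.65 and Lcn2 of -0.30, and none passed the test. Retnlg was below the background mark on all 6 arrays. The part of these cell markers in the small respiratory differences was not tested.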

How the data were processed

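RNA of 6 sorted leukemia samples was measured on arrays, and genotype and replicate number were taken from the sample titles. Each probe set has 1 deposited log2 signal for every array. RMA (robust multi-array average) and limma are named, without version or order, in the submitters' processing notes. Quantile normalization, a part of RMA, removes shifts shared by most genes. The array model is uncertain, since the design text names a model whose identifiers look different, and the genome build is not given in the sources used here.

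Of 72688 rows, 5222 were negative controls, 30604 were paired with 1 symbol and 2146 with several. Older symbols were replaced by those that RefSeq (GRCm38.p6) gives for the same gene ID. Each of 30142 genes was represented by its row of highest mean over the 6 arrays, and 355 genes, 3 of the 88 among them, had more than 1 row. The row used for Atp5l carries another chromosome in its identifier than the RefSeq gene, and in 99.66% of rows the chromosomes are equal. The row of Ndufs6 is paired with more than 1 gene ID, and Atp5pb is named by an older symbol in the annotation. 4 rows that match the prefixes were left out because they name several genes.

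No gene was filtered out. The 2 genotypes were compared by lmFit and eBayes of limma 3.58.1 under R 4.3.3, two-sided and without covariates. P-values were adjusted by Benjamini and Hochberg's method across the 30142 genes, and 0.05 was the threshold. The fit was tested on simulated data. Python 3.11.15 with pandas 2.3.3 served for summaries, and matplotlib 3.10.9 for figures. Array signals have no read depth, and the number of arrays, 3 for each genotype, limits the precision.

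The genes, the lists and the markers were chosen with earlier results of these data known, and the division of subunits by role was made after their values were seen. Named genes were, in each complex, those past the threshold, the 3 with the smallest unadjusted p and those with the largest and smallest difference, together with all succinate dehydrogenase subunits, the paired isoforms of complex IV, and Ndufa4 with Ndufa4l2. Of other lists the 2 genes with the smallest unadjusted p were considered. Other genes are named because they complete a small group and were chosen after their values were seen. Alternatives covered the prior, 3 normalizations, a filter on dim genes, the row of a gene, array weights, the replicate block, the negative-control signal and each array left out. The motif letters were chosen from general knowledge of mitochondrial promoters.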

Additional observations from a re-analysis of the deposited data

How the results depend on the processing

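Limits: 3 arrays of each genotype, no detection calls, 50 of the 88 genes above the background mark on no array, and no mitochondrially encoded subunit. In 19 other settings 0 of the 88 genes were called, the smallest adjusted p of a named gene in any of them was 0.267, and 22 of the 30 named genes kept their sign in all.

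The number of genes at an unadjusted p under 0.05, 4 as reported, was 1 with a trended and robust prior, 2 with arrays centred on their median, 7 with quantile normalization repeated and 7 with cyclic loess, 0 of 39 with only genes clear of the negative controls, and 9 with the negative-control median as a covariate. Leaving out 1 array gave 0 to 7: 0 when Ppara-/- replicate 3 was left out, 7 when Ppara-/- replicate 2 was and 1 when Ppara+/+ replicate 1 was. The number of genes separated by genotype, 10 as reported, was 5 among genes clear of the negative controls, 33 without the 2 arrays of highest negative-control signal and 11 to 25 without 1 array, where fewer arrays make separation easier by construction. The median of complex III, -0.03 as reported, was -0.15 among genes clear of the negative controls and -0.133 to 0.005 when 1 array was left out, the lowest of these when it was Ppara+/+ replicate 3. With array weights, which rated Ppara+/+ replicate 1 lowest at 0.245, 1 gene of the other lists was called, Sod1 (difference -0.55, adjusted p = 0.0346). The causes were not tested.

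Differences near 0 changed sign. Cox6b1 was -0.005 with arrays centred on their median and -0.0201 with the covariate, Cox4i1 was 0.00194 with quantile normalization repeated and 0.00026 with cyclic loess, and Uqcrb was 0.00527 with array weights. Cox8c was -0.10 with array weights, -0.0389 with the covariate and -0.07 without the 2 arrays of highest negative-control signal, where Cox7a2 was -0.045. Without 1 array the differences ran -0.133 to 0.237 for Cox8c, -0.202 to 0.0933 for Cox6a2, -0.188 to 0.0967 for Cox8b, -0.0917 to 0.0433 for Cox4i1, -0.105 to 0.135 for Cox6b1 and -0.01 to 0.055 for Cox6b2.

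Deviations of same-numbered samples from the mean of their genotype had correlations across genes of -0.326, -0.469 and 0.108 for numbers 1, 2 and 3. With 3 arrays of each genotype these cannot decide whether the numbers pair the samples, and the sample titles do not say. With the replicate block 2 of the 88 genes stood at an unadjusted p under 0.05 and 0 were called. Leaving out rows on another chromosome than the gene's, chosen after seeing the data, left all medians as reported to 2 decimals.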
